A study of Mus musculus with 6 samples.

Results

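P19 cells that expressed the intracellular domain of the amyloid precursor protein (AICD) were set against P19 cells that carried the empty pCDNA vector, both in the undifferentiated state before any retinoic acid was given. The comparison held 2 of the series' 6 arrays, AICD/P19_undifferentiated and pCDNA/P19_undifferentiated, chosen by their labels. Both lines were grown in alpha-modified Eagle's medium with fetal calf serum and had 0 days of retinoic acid and 0 days of replating. The same lines were also measured after aggregation with all-trans-retinoic acid for 4 days and after a further 2 days of replating, with 1 array a line and state. Each line stands for itself: the number of clones behind a line and the promoter driving AICD are not given in the sources used here. With 1 array a side there is no replicate, so every difference is a size between 2 arrays with no p-value, and a difference between the lines that existed without AICD cannot be told apart from one that came with it.

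P19 is a mouse embryonal carcinoma line, a tumour-derived pluripotent cell that grows as undifferentiated colonies and can be turned into neural cells by growing it in suspension with retinoic acid. AICD is released into the cytoplasm when gamma-secretase cuts the amyloid precursor protein in the membrane, after alpha- or beta-secretase has removed the ectodomain. It binds the adaptor Fe65 (Apbb1), can enter the nucleus, and has been studied as a possible regulator of transcription.

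Total RNA was labelled with Cy3 and hybridised to 1-colour Agilent mouse arrays, both undifferentiated samples on 1 slide. Levels are log2 processed intensities after subtraction of log2 of each array's 75th percentile over non-control spots, so 0 is a signal at that percentile. That percentile was 529 intensity units on the vector array and 622 on the AICD array, 65.0% and 64.3% of non-control spots were well above background, and no spot was saturated. Replicate spots of a probe had a median SD of 0.084 log2 units on the vector array and 0.075 on the AICD array, which gives 0.11 for a difference. That is the spread of the measurement within an array, not between cultures. Of 12555 genes well above background on both arrays, 1044, or 8.32%, were at least 2-fold apart, 528 higher and 516 lower in AICD cells. With another background correction (normexp) these counts were 295 and 290. At least 10-fold apart were 71, or 0.566%, of which 36 (0.287%) were higher in AICD cells and 35 (0.279%) lower. The median difference over all 12555 was -0.06, and 50.9% lay within 0.25 of 0. Under 2-fold apart, 4903 genes lay above 0 and 6608 below, so most of all genes lay below 0. Dim genes were apart more often, 14.8% of the dimmest of 4 equal groups by mean level against 2.07% of the brightest. Of 267 genes at least 2-fold apart with more than 1 probe, 256 had all probes on the same side of 0 and 159 had all probes at least 2-fold apart.

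**Figure D1:**
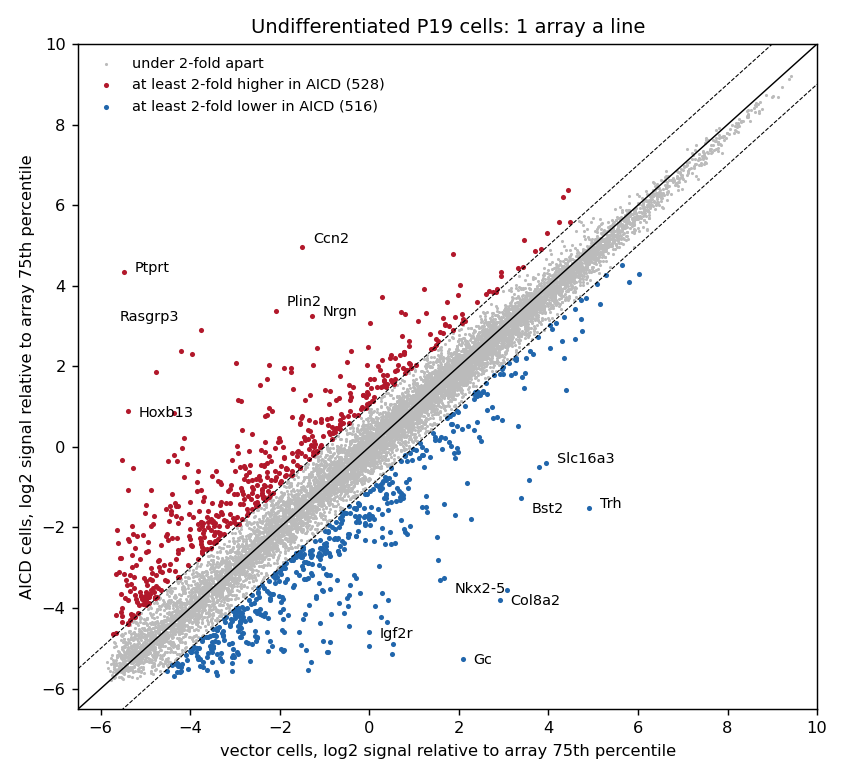
Level of each of 12555 genes on the AICD array (vertical axis) against the vector array (horizontal axis), both in log2 units above the 75th percentile of that array, with dashed lines at 2-fold. The 528 genes at least 2-fold higher in AICD cells (red) and the 516 at least 2-fold lower (blue) lie on both sides of a narrow diagonal, and Ptprt stands farthest from it.

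The labelled cell type was checked against its defining markers. All 7 measured embryonal carcinoma markers were well above background on both arrays, among them Pou5f1, the Oct4 transcription factor, at 6.37 in vector and 6.48 in AICD cells, and Sox2 at 3.72 and 3.25. Their summed linear level was 136 in vector and 130 in AICD cells, in multiples of the 75th percentile signal. The sums for other cell types were 16.9 and 16.8 for the 10 neuronal markers, 2.13 and 1.88 for 9 mesenchymal markers, 0.774 and 1.23 for 4 markers of extraembryonic endoderm, 3.10 and 3.80 for 3 glial markers, 0.327 and 0.392 for 4 blood markers, and 5.50 and 3.43 for 4 muscle markers. Nanog, Zfp42 and L1td1 were not analysed here, and Snap25, Lum and Aif1 were not well above background on either array. Fewer cells of a type and less RNA per cell cannot be told apart in such samples, and the part of these marker levels in the results below was not tested.

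The largest difference among genes well above background on both arrays was in Ptprt, which encodes a receptor-type tyrosine phosphatase of neurons and epithelia. Its level was -5.48 in vector and 4.34 in AICD cells, a difference of 9.82 on the log2 scale or 904-fold. The value rests on 1 probe, and its vector level is near -5.90, the lowest signal well above background on that array. Of 14 receptor tyrosine phosphatases measured on both arrays, 2 were higher and 0 lower by 2-fold or more. The shares over all genes were 4.21% and 4.11%, and with normexp the counts were 1 and 0. Beside Ptprt the higher one was Ptprr at 1.54. Ptpro, not well above background in AICD cells, was lower by at least 3.65-fold. Rasgrp3, an exchange factor that activates Ras and Rap, stood at -3.76 in vector and 2.90 in AICD cells, 101-fold apart. Kcns3, a silent subunit that modifies voltage-gated potassium channels, stood at -4.20 and 2.37. Ackr3, the scavenging receptor for the chemokine Cxcl12, stood at -4.76 and 1.85. Each of these 4 genes was far under the 75th percentile on the vector array and above it on the AICD array.

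Further genes with large excess in AICD cells belonged to several functions. Plin2, the coat protein of lipid droplets, was 43.7-fold higher, from -2.08 in vector to 3.37 in AICD cells. Nedd9, a scaffold of focal adhesions, was 36.8-fold higher, from -4.37 to 0.83. Cdkn2a, the locus of the cell-cycle inhibitor Ink4a and of Arf, was 36.8-fold higher, from -5.52 to -0.32. All 15 genes farthest apart on the higher side, Ptprt included, have 1 analysed probe each, so no second probe bears on their values. Esx1, a placental homeobox gene of the X chromosome, was 33.6-fold higher. Nrgn, neurogranin, a calmodulin-binding protein of dendrites, was 23.3-fold higher, and Gypc, a glycophorin of the red cell membrane, 26.8-fold. Calr3, a testis-type calreticulin, and Ttll6, a tubulin polyglutamylase, were 20.6-fold and 19.9-fold higher. Hoxb13, Akr1c14 and Ccn2 complete the 15 genes and are described with their groups below.

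Among genes well above background on both arrays and lower in AICD cells the largest difference was in Gc, the vitamin D-binding protein made by liver and yolk sac, at 2.09 in vector and -5.27 in AICD cells, 164-fold apart. Col8a2, a short-chain collagen of basement membranes, was 105-fold lower, from 2.91 to -3.80. Syce2, a central element of the synaptonemal complex of meiosis, was 98.0-fold lower, from 3.06 to -3.55. Trh, the precursor of thyrotropin-releasing hormone, was 85.6-fold lower, from 4.91 to -1.51. All 4 were above the 75th percentile in vector cells and under it in AICD cells.

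The other genes with large deficits included 2 transcription and signalling regulators. Nkx2-5, the homeobox factor of heart precursors, was 30.4-fold lower, from 1.66 to -3.26. Dtx1, a deltex ubiquitin ligase of the Notch pathway, was 30.2-fold lower, from -0.02 to -4.93. Slc32a1, the vesicular transporter of GABA and glycine, was 42.4-fold lower, and Slc16a3, the lactate exporter Mct4, was 20.3-fold lower. Ttc30a1, a component of intraflagellar transport, was 49.6-fold lower. It was the 1 gene of 31 measured ciliary genes at least 2-fold apart, or 3.2%, under the 8.32% of all genes. Galnt3, which starts mucin-type glycosylation, was 29.7-fold lower, and Spon1, a secreted axon-guidance protein, 26.5-fold. Sgsm1, a small G-protein signalling modulator, was 20.1-fold lower and its second probe gave -4.27 against -4.33. St6galnac2, a sialyltransferase, was 22.4-fold lower by its main probe but its other probe gave -0.61, so its probes disagree in size. Of the 15 genes farthest apart on the lower side, only Sgsm1 and St6galnac2 have a second analysed probe.

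**Figure D2:**
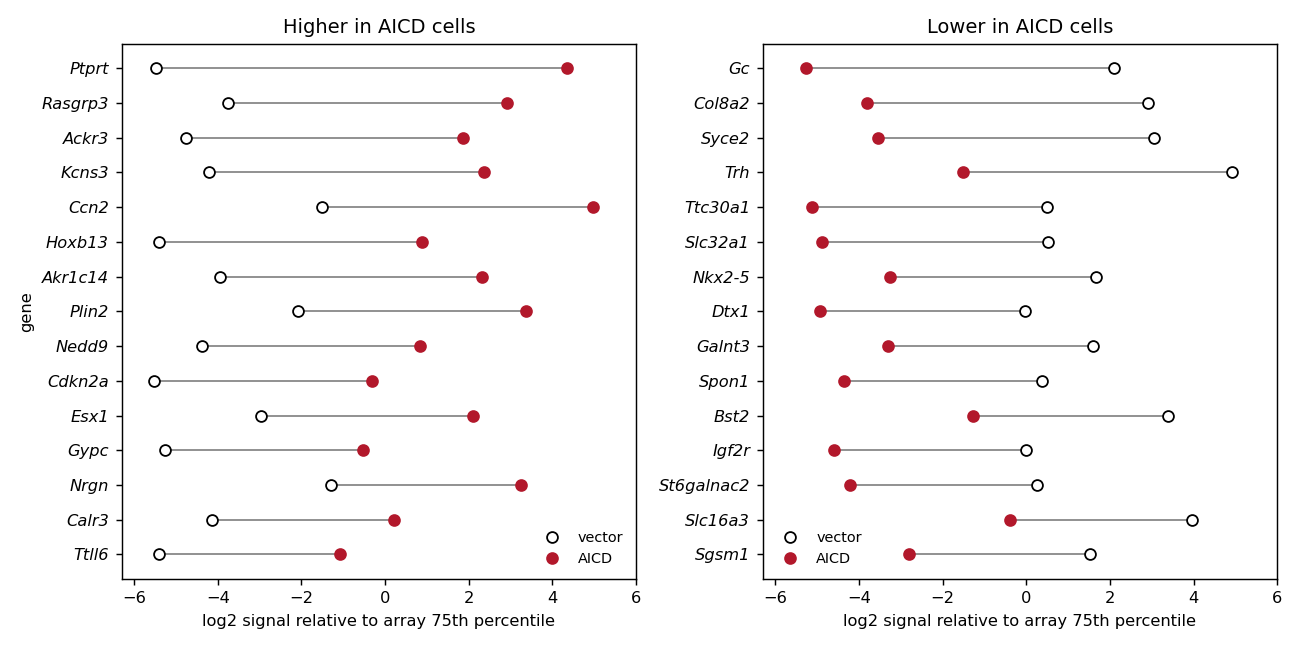
Levels of the 15 genes farthest apart in each direction, in log2 units above the 75th percentile of each array, for vector (open circles) and AICD (red circles), 1 array each. The differences run from 4.31 for Ttll6 to 9.82 for Ptprt on the left and from -4.33 for Sgsm1 to -7.35 for Gc on the right.

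A further 173 genes were well above background on the AICD array alone and 234 on the vector array alone, and for these the difference is a lower bound. The bound sets the bright signal against the lowest signal that was well above background on the dim array, or against the dim probe's own signal where that was higher. It reached at least 2-fold for 84 genes higher and 78 genes lower in AICD cells, and at least 10-fold for 17 and 18. Tagln3, a calponin-family protein of neurons, was at least 70.3-fold higher in AICD cells, with measured levels of -5.97 in vector and 0.24 in AICD cells, and a second probe gave a difference of 5.23. Pmaip1, the BH3-only protein Noxa, was at least 23.3-fold higher, from -7.87 to -1.35. Meis1, a homeobox cofactor of Hox proteins, was at least 19.5-fold higher, and Cav1, caveolin, at least 15.3-fold. Alkbh3, which removes alkyl groups from nucleic acids, Tbx15, a T-box factor, and the methyltransferase-like gene Mettl7a1 were higher by at least 70.1-fold, 37.6-fold and 17.6-fold. These 7 probes were not well above background in vector cells.

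In the other direction Rbp4, the plasma carrier of retinol, was lower by at least 111-fold in AICD cells, with measured levels of 1.01 in vector and -8.06 in AICD cells. Nid1, the basement membrane linker nidogen, was lower by at least 66.5-fold, from 0.28 to -7.99. Cdh1, E-cadherin, the adhesion molecule of epithelial and embryonal carcinoma colonies, was lower by at least 34.7-fold, from -0.66 to -6.16. Wfdc2, a secreted epithelial protein, and the splicing factor gene Zrsr1 were lower by at least 41.6-fold and 41.7-fold. Slc27a2, a fatty acid transporter, Slc10a6, a sulfated steroid transporter, and Dlx4, a distal-less homeobox gene, were lower by at least 33.7-fold, 33.5-fold and 28.2-fold. Within the cadherin list N-cadherin, Cdh2, differed the other way, at 0.34 in vector and 1.67 in AICD cells.

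Genes of the Hippo pathway and its outputs lay mostly on the higher side in AICD cells. YAP and TAZ are coactivators that carry mechanical and growth cues to the nucleus, where they bind DNA through Tead factors and raise genes such as Ccn1, Ccn2 and Ankrd1. Of 19 genes measured, 8 were higher in AICD cells by 2-fold or more and 0 were lower by as much, against 4.21% and 4.11% of all measured genes, and with normexp 6 and 0. The median difference was 0.76, against -0.06 over all genes, and 17 of the 19 were above 0. Ccn2, connective tissue growth factor, stood at -1.50 in vector and 4.97 in AICD cells, a difference of 6.47. Edn1, endothelin, stood at -2.17 and 0.90, and Tead4, a DNA-binding partner, at -3.43 and -0.59. Ankrd1, a muscle ankyrin repeat protein, stood at -5.46 and -3.75, and Tgfb2, a secreted TGF-beta, at -3.54 and -1.83. Ccn1 stood at 2.85 and 3.91. Wwtr1, which encodes TAZ, differed by 1.18 with a second probe at 0.70, the receptor kinase Axl by 1.08, and Yap1 itself by 0.05.

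Promoter sequence was read for this list because YAP and TAZ bind DNA through Tead factors. The list mixes targets with pathway members such as Lats1, Lats2, Yap1 and the Tead genes. The windows run from 250 bases before to 50 after a RefSeq gene start on GRCm38.p6, a later build than the mm9 of the array files. The Tead core GGAATG, or its reverse complement CATTCC, was found in 14.7% of all 32851 windows and in at least 1 window of 16.6% of all genes. Ccn2, Tead4 and Nuak2 had no window. Of the 19 measured members 16 had one, and 12 of these held the core in at least 1 window. Differences of those 12 ran from -0.20 to 3.07 with a median of 0.80. The median of the others, Amotl1, Lats1, Tead2 and Tgfb2, was 0.37. Below, the core is in capitals in the 5 windows of members that were at least 2-fold higher and hold it. A match is a description of the letters, and binding was not measured. The windows are Ccn1 at chr3:145649936-145650235 on the minus strand, Ankrd1 at chr19:36119795-36120094 on the minus strand, Axl at chr7:25788684-25788983 on the minus strand, Wwtr1 at chr3:57575861-57576160 on the minus strand and Edn1 at chr13:42301226-42301525 on the plus strand.
Ccn1: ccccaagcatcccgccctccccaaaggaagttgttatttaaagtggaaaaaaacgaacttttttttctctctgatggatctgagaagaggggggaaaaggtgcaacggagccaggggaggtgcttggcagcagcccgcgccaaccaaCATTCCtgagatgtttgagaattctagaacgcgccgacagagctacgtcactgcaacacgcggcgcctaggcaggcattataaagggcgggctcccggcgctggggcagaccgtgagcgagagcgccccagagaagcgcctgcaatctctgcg
Ankrd1: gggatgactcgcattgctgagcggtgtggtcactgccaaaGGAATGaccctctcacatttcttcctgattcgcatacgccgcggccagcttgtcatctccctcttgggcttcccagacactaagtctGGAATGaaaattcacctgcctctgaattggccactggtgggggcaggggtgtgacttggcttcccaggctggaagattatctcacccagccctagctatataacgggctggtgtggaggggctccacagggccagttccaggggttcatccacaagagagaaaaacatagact
Axl: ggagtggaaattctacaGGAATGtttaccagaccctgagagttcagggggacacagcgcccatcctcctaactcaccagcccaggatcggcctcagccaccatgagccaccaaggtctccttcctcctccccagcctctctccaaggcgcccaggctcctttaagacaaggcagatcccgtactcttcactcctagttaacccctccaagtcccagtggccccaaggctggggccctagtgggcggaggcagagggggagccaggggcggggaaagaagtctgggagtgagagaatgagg
Wwtr1: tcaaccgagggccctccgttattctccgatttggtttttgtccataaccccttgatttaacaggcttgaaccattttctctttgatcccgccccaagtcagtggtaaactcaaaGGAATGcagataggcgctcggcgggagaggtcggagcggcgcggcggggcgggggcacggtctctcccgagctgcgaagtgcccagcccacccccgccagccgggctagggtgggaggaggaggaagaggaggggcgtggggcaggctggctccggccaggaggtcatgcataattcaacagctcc
Edn1: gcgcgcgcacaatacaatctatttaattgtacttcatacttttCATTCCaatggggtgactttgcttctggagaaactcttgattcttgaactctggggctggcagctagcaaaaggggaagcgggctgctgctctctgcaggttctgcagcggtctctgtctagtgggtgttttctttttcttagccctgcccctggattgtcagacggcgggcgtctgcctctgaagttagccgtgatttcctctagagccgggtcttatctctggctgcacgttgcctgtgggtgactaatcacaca
The core stands at 1 place in the Ccn1, Axl, Wwtr1 and Edn1 windows and at 2 places in the Ankrd1 window, at bases 41 and 128.

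Several targets of bone morphogenetic protein (BMP) signalling were also higher. BMPs act through Smad1 and Smad5 to raise the Id genes, which encode inhibitors of basic helix-loop-helix factors and which help keep pluripotent cells undifferentiated. Id2 stood at 1.22 in vector and 3.92 in AICD cells, with a second probe at 3.06 against a difference of 2.70. Id1 stood at 2.03 and 4.02, and both of its probes gave 1.99. Id3 differed by 0.96 and Id4 by 0.80. The inhibitory Smad6 stood at -3.32 and -1.37 and the homeobox target Msx2 at -3.72 and -1.89, while Msx1 differed by -0.09. Receptors and signal transducers were closer together and lay on both sides of 0. The receptors Bmpr2, Acvr1, Bmpr1a and Bmpr1b differed by 0.52, 0.60, 0.30 and -0.66, and Smad1 and Smad5 by -0.14 and -0.07. The ligand Bmp4 differed by 0.62, Gdf6 by -1.01, and Bmp6, not well above background in AICD cells, was lower by at least 4.58-fold. Of 21 BMP genes measured, 4 were higher and 1 lower by 2-fold or more, against 4.21% higher and 4.11% lower among all genes, and with normexp 3 and 0. The list median was 0.44.

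The TGF-beta and Wnt lists held differences in both directions. Tgfb1 stood at -1.12 in vector and -3.38 in AICD cells and Tgfb3 at 2.21 and 0.51, while Tgfb2 was higher as given above. Of 35 Wnt genes measured, 4 were higher and 1 lower by 2-fold or more, against 4.21% higher and 4.11% lower among all genes, and with normexp 2 and 1. The ligand Wnt3 was lower by 2.60 on the log2 scale, from -2.22 to -4.82, and the ligand Wnt7a was higher by 2.34. Rspo3, a secreted amplifier of Wnt signalling, and Wif1, a secreted inhibitor, were higher by 2.03 and 1.88. The receptor Fzd10 was higher by 1.17.

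Genes of the interferon response and of MHC class I presentation lay mostly on the lower side. This set includes the proteasome subunits and class I chains that present peptides on the cell surface, and antiviral effectors raised by interferon through Stat and Irf factors. Of 30 genes measured, 9 were lower in AICD cells by 2-fold or more and 1 was higher by as much, against 4.11% lower and 4.21% higher among all measured genes. With normexp these were 6 and 1. The median was -0.42, against -0.06 over all genes. Of the 30 genes 22 lay below 0, the side on which most of all genes lay. Bst2, tetherin, which holds budding viruses at the membrane, stood at 3.39 in vector and -1.28 in AICD cells. Psmb10, an immunoproteasome subunit, stood at 3.31 and 0.51, and its partner Psmb9 at -2.28 and -3.58. H2-K1, a classical class I chain, stood at 4.03 and 2.45, with other probes from -1.22 to -0.64 against -1.59. The class I genes are near-identical in sequence, so a probe of one may carry signal of another. Ifi30, a lysosomal thiol reductase, differed by -1.73, the GTPase Gbp3 by -1.76, the membrane protein Ifitm2 by -1.38 and the factor Irf1 by -1.14. Socs3, a feedback inhibitor of cytokine signalling, was the 1 member at least 2-fold higher, at 1.32. B2m, the shared light chain of class I molecules, differed by 0.71.

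The interferon-stimulated response core, 2 copies of GAAA separated by any 2 bases on either strand, was found in 3.44% of all windows. At least 1 window held it in 3.99% of all genes and in 10 of the 28 members that had a window. The median difference was -0.40 for members with the core and -0.46 for those without, so in this list the 2 medians were close. The 4 windows of members at least 2-fold lower that hold it are shown because they include Bst2, the member farthest apart, with the core in capitals. Overlapping copies run together. The windows are Bst2 at chr8:71537423-71537722 on the minus strand, Gbp3 at chr3:142559794-142560093 on the plus strand, Ifitm2 at chr7:140955912-140956211 on the minus strand and H2-T23 at chr17:36032652-36032951 on the minus strand.
Bst2: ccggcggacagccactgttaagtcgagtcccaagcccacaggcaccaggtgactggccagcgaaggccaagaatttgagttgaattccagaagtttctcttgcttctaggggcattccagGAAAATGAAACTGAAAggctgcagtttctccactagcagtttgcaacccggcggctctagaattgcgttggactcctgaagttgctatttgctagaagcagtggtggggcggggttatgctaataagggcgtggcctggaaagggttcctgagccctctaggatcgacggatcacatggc
Gbp3: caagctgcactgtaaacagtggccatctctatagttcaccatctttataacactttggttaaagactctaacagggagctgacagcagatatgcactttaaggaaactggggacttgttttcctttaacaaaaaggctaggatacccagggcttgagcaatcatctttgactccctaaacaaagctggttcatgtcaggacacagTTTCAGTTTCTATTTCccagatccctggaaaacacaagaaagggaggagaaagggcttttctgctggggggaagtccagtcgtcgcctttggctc
Ifitm2: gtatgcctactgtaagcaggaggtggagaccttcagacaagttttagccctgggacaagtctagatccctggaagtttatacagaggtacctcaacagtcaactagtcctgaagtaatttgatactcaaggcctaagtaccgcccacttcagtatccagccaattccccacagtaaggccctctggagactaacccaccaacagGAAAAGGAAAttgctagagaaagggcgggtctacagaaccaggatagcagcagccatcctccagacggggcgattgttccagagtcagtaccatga
H2-T23: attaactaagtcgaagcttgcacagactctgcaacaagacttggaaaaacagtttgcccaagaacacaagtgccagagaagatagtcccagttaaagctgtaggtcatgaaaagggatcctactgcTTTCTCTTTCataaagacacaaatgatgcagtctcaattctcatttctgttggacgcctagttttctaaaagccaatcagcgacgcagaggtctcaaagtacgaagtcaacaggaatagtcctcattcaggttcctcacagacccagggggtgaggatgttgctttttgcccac
The core was matched at 2 overlapping places in Bst2 and in Gbp3 and at 1 in Ifitm2 and H2-T23. A further 5 motifs were searched, each in the list it belongs to, and they were chosen after the list values were known. At least 1 window held the Stat motif TTCCNGGAA in 2 of the same 28 members, against 1.35% of all genes. The Smad motif GGCGCC was in 6 of 16 BMP members against 13.4%, and the BMP motif GCCGNCGC in 7 of 16 against 10.9%. BMP members with GGCGCC had a median of 0.41 and those without 0.52, and for GCCGNCGC these were 0.30 and 0.52. The E-box CACGTG was in 3 of 29 lipid genes against 8.09%, and the cAMP element TGACGTCA in 1 of 22 transmitter genes against 2.03%.

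**Figure D3:**
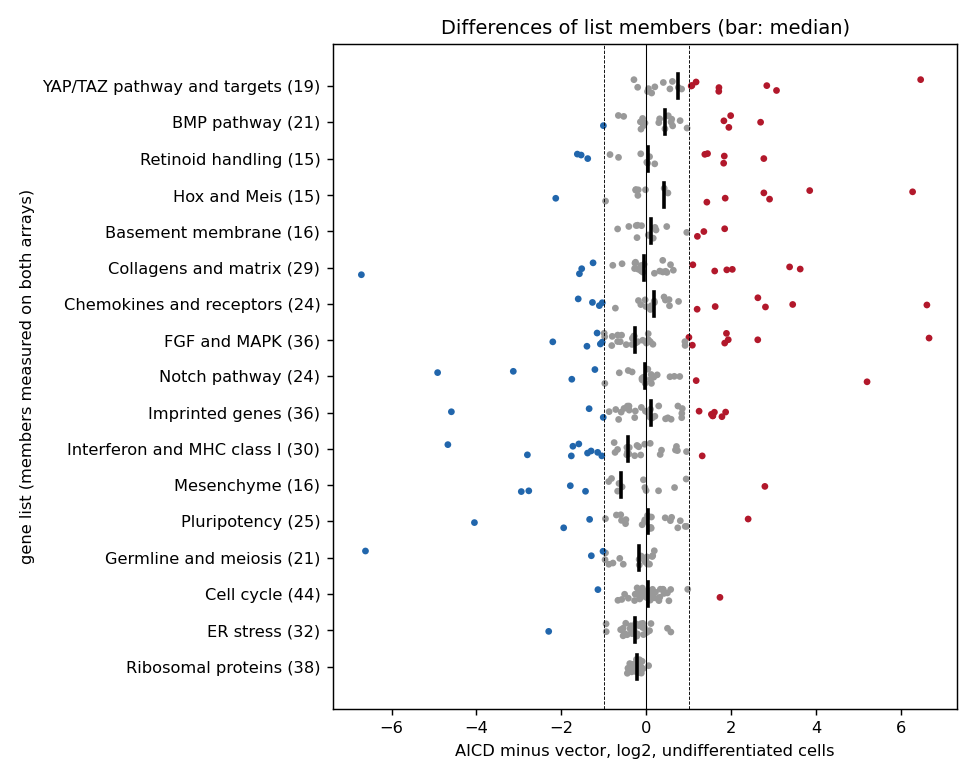
AICD minus vector difference (log2, horizontal axis) of each measured member of 17 gene lists, with black bars at list medians and dashed lines at 2-fold. Members at least 2-fold higher are red and lower blue, and the medians run from -0.60 for the mesenchyme list to 0.76 for the YAP/TAZ list.

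On the list of mesenchymal surface and lineage genes 1 of 16 was higher and 4 were lower by 2-fold or more. The shares over all genes were 4.21% higher and 4.11% lower. Of the 16 genes 12 lay below 0, as did most of all genes. The median was -0.60, against -0.06 over all genes. With normexp the counts were 1 and 3 and the median was -0.38. A filter on dim probes at the array median left 13 of the genes, with a median of -0.07. Thy1, a surface glycoprotein of fibroblasts and neurons, stood at -0.31 in vector and -3.25 in AICD cells. The transcription factors Snai2 and Twist1, known for driving cells from epithelium to mesenchyme, differed by -2.77 and -1.79. Anxa1 and Anxa2, annexins that bind membranes, differed in opposite directions, by 2.80 and -1.43. Matrix and adhesion genes were split. Collagens are the fibres and sheets of the extracellular matrix, and thrombospondins are secreted glycoproteins that bind them. The 2 chains of type VIII collagen differed in opposite directions, Col8a2 being lower as given above while Col8a1 stood at -1.17 in vector and 2.46 in AICD cells, with a second probe at 4.20. Thbs2 stood at -4.13 and -0.75, Col11a1 at -2.44 and -0.82, and Efemp1, a fibulin, differed by -1.57. Of 29 genes measured here, 6 were higher and 4 lower by 2-fold or more, against 4.21% higher and 4.11% lower among all genes; with normexp 5 and 2. Among basement membrane genes 3 of 16 were at least 2-fold higher and 0 lower, against the same 4.21% and 4.11%. Lama1, a laminin chain, differed by 1.85, Col4a2 by 1.36 and Col4a1, its partner in type IV collagen, by 1.21, whereas Nid1 was lower by the bound given above. The protocadherin Pcdh17 differed by -2.09, and Pcdh19 was higher by 3.10 with a second probe at 0.19.

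Several neural genes were apart before retinoic acid. In Notch signalling a receptor on one cell is cut after binding a ligand on its neighbour, and the freed intracellular domain raises Hes genes that hold back neuronal differentiation. Hes5, such a target, stood at -1.93 in vector and -5.06 in AICD cells. The ligand Jag2 differed by -1.21, Mfng, a glycosyltransferase that modifies the receptors, by -1.75, and the receptor Notch3 by 1.18. Hes1 differed by -0.10. Of 24 genes measured here, 2 were higher and 4 lower by 2-fold or more, against 4.21% higher and 4.11% lower among all genes. Among progenitor genes Pax6, a homeobox factor of forebrain and eye, stood at -3.83 and -0.59, and Sox9 at -5.40 and -3.42. The zinc-finger factor Zic2 and Fabp7, a fatty acid-binding protein of radial glia, differed by -1.68 and -1.39, while the homeobox genes Nkx6-2 and Lhx2 differed by 1.30 and 1.16. Of transmitter genes, Penk, the enkephalin precursor, was higher by 3.25, from -4.41, and Slc17a6, a vesicular glutamate transporter, lower, from -3.78 to -5.43. In axon guidance Efnb1, an ephrin, stood at -1.75 and 1.95, and the semaphorin Sema3e at -2.04 and 0.12. The receptor Epha1 differed the other way, by -1.67, and Sema6a by -1.78 with a second probe at -0.44. Of 36 axon guidance genes measured, 5 were higher and 3 lower by 2-fold or more, against 4.21% and 4.11% of all genes. With normexp these were 4 and 2.

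Genes that make, carry or sense retinoic acid differed although neither culture had received it. Of 15 genes measured here, 5 were higher and 3 lower by 2-fold or more, against 4.21% higher and 4.11% lower among all genes; with normexp 4 and 2. Aldh1a1, a retinaldehyde dehydrogenase, stood at -2.93 in vector and -0.16 in AICD cells, while its relative Aldh1a2 stood at -3.59 and -5.13. The dehydrogenase gene Aldh1a7 was higher by at least 47.5-fold. Rdh10, which makes retinaldehyde, differed by 1.82, the binding protein Crabp2 by 1.84, the receptor gene Rarb by 1.45 and the reductase Dhrs3 by 1.38.

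Hox genes, which set position along the body axis, are usually near silence in undifferentiated cells. Of 15 measured genes on the Hox and Meis list 6 were at least 2-fold higher and 1 lower, against 4.21% higher and 4.11% lower among all genes. With normexp these were 5 and 0. A further 8 listed genes were well above background on neither array. Hoxb13 stood at -5.39 in vector and 0.88 in AICD cells. Hoxd8 stood at -4.87 and -1.97, Hoxb9 at -3.86 and -1.09 and the cofactor Meis2 at -1.90 and 1.96, whose second probe gave 3.95 against 3.85. Hoxb3 was the 1 lower member, at -3.07 and -5.21. The posterior member Hoxb13 and the anterior member Hoxb3 of the same cluster thus differed in opposite directions.

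Receptors and ligands of growth signalling held several large differences. Cxcl12, the chemokine bound by Ackr3, was itself higher in AICD cells, at 0.28 in vector and 3.73 in AICD cells, with a second probe at 3.65 against 3.45. The sphingosine receptor S1pr1 stood at -5.56 and -2.75, and Npr3, the clearance receptor for natriuretic peptides, at 0.72 and 3.35. S1pr3 differed by 1.63 but its second probe gave 0.35. Fos, an immediate early gene, stood at -4.00 and -1.37, and Kitl, the ligand of Kit, at -1.94 and -0.01. Of the 36 measured genes of FGF and MAPK signalling 7 were at least 2-fold higher and 5 lower, against 4.21% higher and 4.11% lower among all genes. The counts were 5 and 1 with normexp and 6 and 7 with median scaling, so the balance of the directions depends on the processing. The list median was -0.26, and 21 of the 36 lay below 0. Among the lower ones Rasal1, a Ras GTPase-activating protein, stood at -2.94 and -5.14. The other lower ones were Fgf15, Ier3, Dusp4 and Rasgrp2, at -1.40, -1.16, -1.08 and -1.04. Beside Fos, Kitl and Rasgrp3 the higher ones were Pdgfb, Egfr, Pdgfa and Egr1, at 1.89, 1.85, 1.09 and 1.01.

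Of 25 measured pluripotency genes 1 was at least 2-fold higher, a share close to the 4.21% of all genes, and 3 were lower, against 4.11%. Fgf5, a marker of the primed, epiblast-like state, stood at 2.26 in vector and -1.78 in AICD cells. Dppa4 stood at 0.75 and -1.19, Utf1 at 2.64 and 1.30, and Tbx3, a T-box factor of the naive state, at -2.89 and -0.49. Imprinted genes, expressed from 1 parental copy, held Igf2r, the receptor that removes Igf2 from the cell surface, at -0.02 and -4.61. Igf2 itself stood at 0.49 and 2.28, with its second probe at 1.96 against 1.78, and Plagl1, a zinc-finger factor, at 4.33 and 6.20. Of 36 measured imprinted genes 7 were at least 2-fold higher and 3 lower, against 4.21% higher and 4.11% lower among all genes. Gata3 and Gata2, zinc-finger factors of trophoblast and blood, differed by 3.96 and 2.75, and the second Gata2 probe gave 2.62. Etv2, which starts the blood vessel programme, differed by -3.48 and the receptor Flt1 by -2.80.

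Metabolic and detoxifying genes included large single differences. Gramd1a, a sterol transporter between membranes, stood at -2.25 in vector and 2.02 in AICD cells, while of the 38 measured cholesterol and lipogenesis genes 1 was at least 2-fold higher and 2 lower, shares near the 4.21% and 4.11% of all genes. Cbr3, a carbonyl reductase, stood at 3.79 and -0.51, and Gstp1, a glutathione transferase, at 0.79 and 3.29 with a second probe at 4.54. Fabp3 and Acsl5, which bind and activate fatty acids, differed by -2.97 and -2.90, and Cpt1a, which admits them to mitochondria, by 2.12. Ctsc, the lysosomal protease cathepsin C, stood at -1.75 and 1.85. The glycolytic genes Eno2, Pfkfb4 and Pfkp differed by -1.79, -1.56 and -1.21, the last with a second probe at -0.44. Of 39 measured glycolysis and hypoxia genes 1 was at least 2-fold higher and 4 lower, against 4.21% and 4.11% of all genes. With normexp these were 0 and 3. Of the 39 genes 22 lay above 0, and the median was 0.03. The chromodomain gene Cdyl2 stood at -0.33 and -3.18.

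Lists of general cell functions were close together. Of 44 cell-cycle genes 1 was at least 2-fold higher and 1 lower, both under the shares over all genes, with a median of 0.04. Of 45 measured p53 and apoptosis genes the 2 at least 2-fold higher were the neighbouring inhibitor genes Cdkn2a and Cdkn2b, the latter at -5.02 in vector and -1.63 in AICD cells. That is 4.44% of the list, near the 4.21% of all genes, and 0 were lower by as much. Of 32 genes of endoplasmic reticulum stress 1, or 3.1%, was at least 2-fold lower, Sil1 at -2.30, against 4.11% of all genes. Of the 32 genes 26 lay below 0, the side on which most of all genes lay. Of 38 ribosomal protein genes 0 were at least 2-fold apart in either direction, yet 37 lay below 0, with a range from -0.44 to 0.06 and a median of -0.23. That median was -0.01 with an intensity-dependent loess and -0.03 with quantile normalization, and the brightest of the 4 level groups had a median of -0.14. The reference gene list had a median of 0.01.

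The genes of the amyloid precursor protein itself and those reported elsewhere to respond to AICD were examined as a list. App stood at -0.46 in vector and -0.21 in AICD cells, a difference of 0.25. The position of the App probe on the transcript is not used here, so this value does not check the AICD construct. Of 20 measured genes reported to respond to AICD 3 were at least 2-fold higher and 1 lower, against 4.21% higher and 4.11% lower among all genes. With normexp the counts were 1 and 0. Egfr, the epidermal growth factor receptor, stood at -0.37 and 1.48, and its other probes gave 1.70 to 1.94 against 1.85. Cd82, a tetraspanin, stood at -4.84 and -3.13. Mme, the amyloid-degrading protease neprilysin, stood at -1.87 and -0.53, with a second probe at 0.51 against 1.34, and Slc17a6 was lower as given above. Gsk3b differed by 0.15, Bace1 by -0.27, Kat5 by -0.30, Lrp1 by 0.19, Trp53 by 0.06, with a second probe at -0.78, Stub1 by -0.05 and the AICD partner Apbb1 by -0.04. For the smooth muscle genes the probes disagreed. Acta2 differed by 0.17 by its main probe and by 2.26 to 2.71 by its others, and Tagln by 0.51 against 2.34. Tpm1 differed by 0.73, Igfbp3 by 0.65, Ptch1 by -0.44, Cyp46a1 by 0.08 and Slc17a7 by -0.11. Among secretase and adaptor genes Apba2 differed by -1.03, Adam9, an alpha-secretase-like protease, by 0.72, and Psen2, a gamma-secretase subunit, by -0.71.

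Genes at least 2-fold apart were also examined by their order along the chromosomes, using the RefSeq annotation. There were 137 pairs of adjacent measured genes with both at least 2-fold apart, and in 94 of them both differed in the same direction. Among all 12555 genes placed, 8.32% were at least 2-fold apart, 4.21% higher and 4.11% lower. The number of pairs these shares alone would give was not computed, so the pairs and runs are a description. The 94 include pairs within the aldo-keto reductase and stefin runs below. Runs of at least 3 such genes numbered 9, of which 8 were higher in AICD cells. Ttll6, Hoxb13, Hoxb9 and Hoxb7 formed 1 run, with differences of 4.31, 6.28, 2.77 and 1.43. The aldo-keto reductases Akr1c14, Akr1c18, Akr1c19 and Akr1c12, enzymes of steroid and prostaglandin metabolism, formed another with 6.26, 3.55, 3.12 and 2.98. The stefin cluster, which encodes inhibitors of cysteine proteases, held 7 genes with differences from 1.04 for Csta2 to 2.82 for Stfa1. The aldo-keto reductases and the stefins are near-identical copies, so a probe of one may carry signal of another and their number is uncertain.

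Runs without such copies included Nrgn, Spa17, Siae and Tbrg1, with differences of 4.54, 1.66, 1.42 and 1.11. Tceanc, Tmsb4x, Prps2 and Msl3 formed a run with 1.37, 1.93, 1.12 and 1.64, and Zcchc18, Esx1 and Nrk by 1.33, 5.07 and 1.65. Tmsb4x encodes the actin-binding thymosin beta-4 and Msl3 a member of a chromatin complex. Pmp22, a myelin membrane protein, was higher by 2.94 between Cdrt4 at 1.39 and Hs3st3b1 at 1.02, and Trpm4, Hrc and Ppfia3 by 2.14, 1.55 and 1.34. The 1 lower run held Rasal1 at -2.20, Dtx1 at -4.91 and Oas1e at -1.18.

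**Figure D4:**
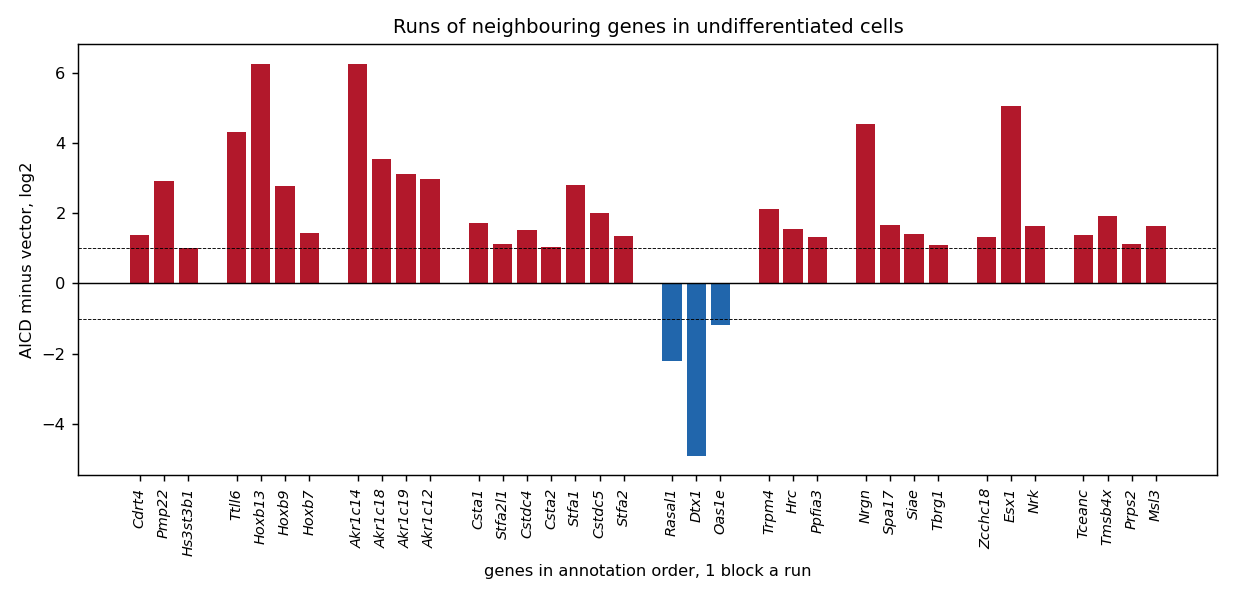
AICD minus vector difference (log2, bars from 0) of the genes in the 9 runs of adjacent measured genes, in annotation order with 1 block a run and dashed lines at 2-fold. In 8 runs all genes are higher in AICD cells, and in the run of Rasal1, Dtx1 and Oas1e all are lower.

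The later states were measured on other arrays of the same 2 lines, so they show which differences recurred. Of 427 genes at least 2-fold higher before retinoic acid and measured on both arrays of the aggregated pair, 335 had the same sign there and 148, or 34.7%, were again at least 2-fold higher. Over all measured genes, 7.33% of the aggregated pair and 8.57% of the differentiated pair were at least 2-fold apart, and 4.21% and 4.62% were at least 2-fold higher. In the differentiated pair 128 of 432, or 29.6%, were again at least 2-fold higher and 37 were at least 2-fold lower. Of the genes at least 2-fold lower before retinoic acid, 115 of 419 and 131 of 432 were again lower by 2-fold or more after aggregation and after replating, against 3.12% and 3.96% of all genes. A difference in the same direction and at least 2-fold in all 3 states was found for 82 of 410 higher and 76 of 409 lower genes. The share of all genes at least 2-fold apart the same way in both later pairs was not computed. Among genes under 2-fold apart and above 0 in the undifferentiated pair, 3.72% were at least 2-fold higher in the aggregated pair. There 61.2% of these less separated genes kept their sign, against 78.5% of the genes at least 2-fold higher before retinoic acid.

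Some of the large differences recurred, and 8 of them, chosen after their values were seen, are given here. Ptprt differed by 9.82, 7.60 and 6.84 in the undifferentiated, aggregated and differentiated pairs. Plin2 differed by 5.45, 5.28 and 4.88, and Igf2r by -4.59, -4.82 and -5.72. Gramd1a differed by 4.27, 5.22 and 4.53, Ctsc by 3.60, 4.26 and 4.18, and Cdyl2 by -2.85, -3.66 and -3.27. Nkx2-5 differed by -4.93, -3.90 and -3.29 and Slc32a1 by -5.41, -3.72 and -3.31. For these 8 genes the sign was the same in all 3 pairs.

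Other differences, also chosen after their values were seen, were smaller in the later pairs or ran the other way, except that of Hes5. Nedd9 differed by 5.20 before retinoic acid and by -1.09 and -0.26 later, as the vector level moved from -4.37 to 1.18 in the aggregated state. Trh differed by -6.42, -0.90 and -2.05, as the vector level moved from 4.91 to -1.87 and -0.44. Col8a2 differed by -6.71, -0.44 and -0.92, and Spon1 by -4.73, 1.07 and 0.84. The BMP targets Id1 and Id2 differed by 1.99 and 2.70 before retinoic acid, by 0.10 and 0.48 after aggregation, and by -1.43 and -0.68 after replating. Meis1, at least 19.5-fold higher before retinoic acid, differed by -0.48 and -0.60 later, when both lines were above the 75th percentile. Hes5 differed by -3.13 before retinoic acid and by -11.28 in the differentiated pair, where the vector level was 5.82 and the AICD level -5.47.

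**Figure D5:**
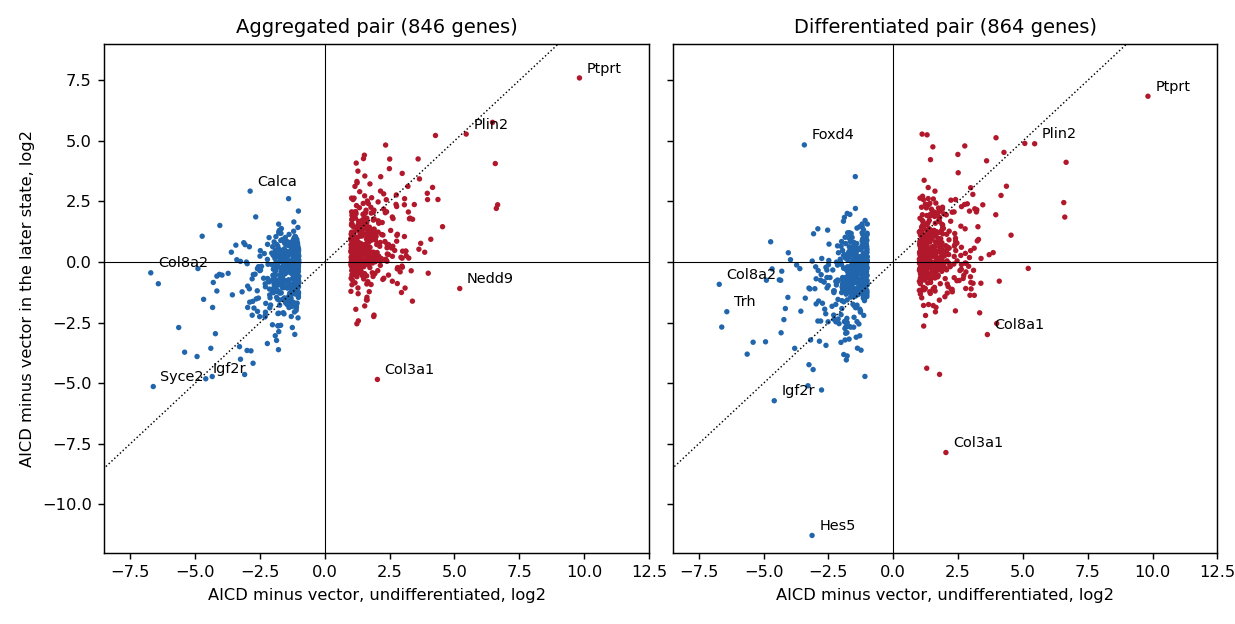
AICD minus vector difference (log2) in the aggregated pair (left, 846 genes) and the differentiated pair (right, 864 genes), vertical axes, against the difference in the undifferentiated pair, horizontal axes, for genes at least 2-fold apart there, with equality dotted. Plin2 lies near the dotted line in both panels, Ptprt is highest on the horizontal axis and under the line at 7.60 and 6.84, and Col3a1 is below 0 in both panels. Calca is above 0 in the left panel and Foxd4 in the right.

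Promoter windows of the genes apart were compared with those of all measured genes by their number of CpG dinucleotides, since CpG-poor promoters are typical of tissue-restricted genes. The median was 20 over the 10081 measured genes with a window, 15 for genes at least 2-fold higher, 16 for genes at least 2-fold lower, 9.5 for the 30 genes at least 10-fold higher with a window and 18 for the 30 at least 10-fold lower. CpG number also moved with level. Within the dimmest of the 4 level groups the median was 10.5 over all genes, 9 for those at least 2-fold higher and 15 for those at least 2-fold lower. In the brightest group it was 23 over all genes, 21 for those higher and 20 for those lower.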

How the data were processed

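Total RNA of 6 samples (2 lines, 3 states, 1 array each) was hybridised with Cy3 to Agilent mouse arrays. The authors deposited scanner output of Agilent Feature Extraction 10.1.1.1, per the submitters' processing notes and the file headers, with a background-subtracted processed intensity per spot. A value table was also deposited, in which each score encodes a log2 value relative to the array and to the probe's median.

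Control and outlier spots were left out and spots of a probe averaged. Log2 processed intensity minus log2 of the 75th percentile of non-control spots was computed from the deposited files. Probes were named by RefSeq accession, 24844 of 41174. Each gene was read by the probe with the highest mean over 6 arrays among probes well above background on at least 2, and genes well above background on both undifferentiated arrays were counted. Without replicates no test was run, and the 2 arrays limit the precision. Members and the 51 lists were chosen with earlier results of these data known. Named genes were up to 15 per direction by size, up to 8 per direction by lower bound, up to 5 per list plus members that define it, all measured genes reported to respond to AICD, members of runs, and up to 8 genes apart in opposite directions across states. List members outside the 5 largest are given as values only. Alternatives were other backgrounds (normexp with offset 50, limma 3.58.1, from the median signals, since no mean signals were in the files used), scalings, filters and probe rules. The procedure was tested on simulated arrays. Python 3.11.15, pandas 2.3.3 and statsmodels 0.14.6 were used.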

Additional observations from a re-analysis of the deposited data

Results flagged for a closer look

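Of 8 genes named because they were at least 2-fold apart in opposite directions in the undifferentiated pair and in a later pair, by the smaller of the 2 sizes, 6 were higher in AICD cells before retinoic acid. The difference between states was not tested, since each state has 1 array a line. Col8a1 differed by 3.63 before retinoic acid and by -2.99 in the differentiated pair, with a second undifferentiated probe at 4.20. Col26a1 differed by 3.99 and then by -2.54, and Cavin2, a caveolar protein, by 3.33 and then by -2.10, both in the differentiated pair. Col3a1, a fibrillar collagen, differed by 2.03, then by -4.85 after aggregation and by -7.86 after replating. Its level in AICD cells was -1.58, -3.74 and -4.14 in the 3 states, and in vector cells it was -3.61 before retinoic acid and 3.72 after replating. Cntnap2, a neurexin-family adhesion protein, differed by 2.40 and by -2.02 in the differentiated pair.

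Foxd4, a forkhead factor, differed by -3.43 and then by 4.83 in the differentiated pair. Calca, the calcitonin and CGRP precursor, differed by -2.88, then by 2.93 after aggregation and by -1.61 after replating. Thbs1 differed by 1.90, then by -2.19 after aggregation and by 2.26 after replating. In the undifferentiated pair 19 probes without a gene symbol were at least 10-fold apart, of 7336 such probes well above background on both arrays. Of these 19, 11 were higher in AICD cells and 8 lower, with extremes of 4.96 and -5.64.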

How the results depend on the processing

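The settings that moved the counts of genes at least 2-fold higher, 2-fold lower, 10-fold higher and 10-fold lower by over 1.5 times, from 528, 516, 36 and 35, were 3. The normexp background correction gave 295, 290, 14 and 14, no filter on dim probes gave 1010, 1035, 78 and 82, and a filter at the array median, chosen after seeing the data, gave 349, 325, 14 and 14. The last 2 differ by their own construction in how many genes enter, 17165 and 10623; for normexp the cause was not tested. Under normexp 581 of the 1044 genes were still at least 2-fold apart in their direction, and under the other scalings, loess and probe rules 981 to 1031. The filter at the 25th percentile removed 0 genes. No scaling moved the median of all genes by over 0.1, and the split of higher against lower stayed within 10 percentage points. The bounds, neighbour runs and later states were computed under the main setting alone.

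Of 215 named genes at least 2-fold apart on both arrays, 161 kept that size under normexp. Sdc3, a syndecan on the adhesion list, changed sign, from -1.41 to 0.09 (0.0927) when the brightest probe on the 2 arrays was used. The deposited values could be turned back to log2 on both undifferentiated arrays for 83 of the 215, all with the same sign and still at least 2-fold apart; counts over all genes were not made from them because values near the probe median are blank. The medians of the Notch, retinoid, Wnt, TGF-beta, collagen, cadherin and pluripotency lists, among others close to 0, changed sign under at least 1 setting, so no direction is given for them. No paired analysis was possible because the undifferentiated state has 1 array a line; the lines across the 3 states, with state as a block, are another comparison and were not fitted. Probes near background carry the least precise differences.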
